A study of Mus musculus with 6 samples.

Results

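The miRNAs described here are both arms of mouse miR-126a (mmu-miR-126a-3p and mmu-miR-126a-5p) together with mmu-miR-221-3p and mmu-miR-222-3p, written below without the species prefix. They were taken by their names on the array, and all 4 were present among its 1963 miRNA probes. Lung RNA of 6 C57BL/6 wild-type mice, 8 to 10 weeks old, was measured on 6 one-dye arrays, 1 mouse each. The WT group was 3 mice given saline, and the WT-BLM group was 3 mice that received 1.5 U/kg of bleomycin (BLM) through the trachea, all sampled at day 21. BLM, a cytotoxic agent, damages lung tissue and serves as a model of fibrosis, and no mouse of either group carried a transgene. The RNA came from whole lung, in which fewer cells of a type and less RNA per cell cannot be told apart. The arrays held probes for miRNAs and controls but for no mRNA, so that the endothelial source of these miRNAs was not checked against an endothelial transcript.

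A miRNA hairpin is cut into a 5p and a 3p strand, of which one is usually retained by the silencing complex while the other is degraded. The retained strand finds its target mRNAs mainly through its seed, the bases at positions 2 to 8. The hairpin of miR-126 lies within the endothelial gene Egfl7 and its 3p strand is among the best known miRNAs of endothelial cells, where it sustains the response to vascular endothelial growth factor by repressing the inhibitor Spred1. miR-221 and miR-222 are transcribed together. In endothelial cells they repress the receptor Kit, and in dividing cells they repress the cell cycle inhibitor Cdkn1b.

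The sequences of the 4 miRNAs, as the array names its targets, show which of them share a seed. Capitals mark the seed:
mmu-miR-126a-3p: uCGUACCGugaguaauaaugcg
mmu-miR-126a-5p: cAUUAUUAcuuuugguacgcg
mmu-miR-221-3p: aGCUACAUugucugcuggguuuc
mmu-miR-222-3p: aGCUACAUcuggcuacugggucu

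miR-221-3p and miR-222-3p share the seed and the first 8 bases, but only 11 of their 23 positions hold the same base. The arms of miR-126a share their seeds with no other probe, whereas that of miR-221-3p and miR-222-3p was also found in miR-1928, which was detected on no array. In the RefSeq table of the mouse assembly GRCm38.p6, 3 of the 4 matched an entry with the same sequence. miR-126a-3p lies at chr2:26591402-26591423 on the plus strand, in the Mir126a hairpin at chr2:26591357-26591429, which is within the limits of Egfl7 (chr2:26581083-26592682). miR-221-3p lies at chrX:19146307-19146329 and miR-222-3p at chrX:19146901-19146923, both on the minus strand, with 504 bases between their hairpins. miR-126a-5p was not matched. The files name no assembly, and these positions were used only to describe the genes.

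The strand opposite miR-126a encodes miR-126b, whose arms are shown because they are complementary to those of miR-126a. Capitals mark the run complementary to miR-126a-3p in the first and to miR-126a-5p in the second:
miR-126b-5p: AUUAUUACUCACGGUACGAguu
miR-126b-3p: CGCGUACCAAAAGUAAUAAUGug

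The run was 19 bases for miR-126b-5p and 21 bases for miR-126b-3p. Neither arm of miR-126b passed the detection filter. miR-126b-3p was detected on no array, and miR-126b-5p only on that of WT mouse 1, where its spots stood at 0.963 and 152 above the empty spots and the brightness within the brighter spot varied by 83.6% of its intensity.

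For the values below, spot intensities were corrected for background with an offset of 50, quantile normalized on the log2 scale and averaged over both spots of a probe. A probe counted as detected on an array when its mean exceeded the median empty spot of that array plus 3 SD of the empty spots. Testing was limited to the 275 probes found on 3 or more arrays. Between 132 and 365 probes were detected per array. The array of WT mouse 3 stood apart, with 132 detected probes. Its tested probes had a median intensity of 129 above background, where the other arrays had 224 to 282. The array of WT-BLM mouse 1 came next, with 176 detected probes where the remaining 4 had 270 to 365, and an SD of its empty spots of 45.2 where those had 8.01 to 18.1. When WT-BLM and WT lungs were compared with limma, 0 of 275 miRNAs (0%) had an adjusted p under 0.05 and 5 (1.82%) had an unadjusted p under 0.05, and 0 of the 4 described here were among either, though some alternatives given below gave miR-126a-3p or miR-222-3p an unadjusted p under 0.05. The groups did not overlap for 13 of 275 miRNAs (4.73%), of which miR-222-3p was 1. With 3 mice against 3, an exact two-sided permutation test cannot give a p under 0.10.

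miR-126a-3p was one of the brightest probes in every lung. Its log2 intensity was 13.30, 14.01 and 12.78 in WT mice 1, 2 and 3. In WT-BLM mice 1, 2 and 3 it was 14.40, 13.97 and 14.01. All 3 WT-BLM mice were above WT mice 1 and 3, but WT mouse 2 was level with WT-BLM mouse 3 and above WT-BLM mouse 2. From the brightest of the 1963 probes downwards it stood at places 18, 8 and 23 in WT and at places 4, 8 and 7 in WT-BLM lungs. The brightness of a probe depends on its own sequence as well as on the amount of its miRNA, and these places are therefore not an order of abundance.

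The mean log2 intensity of miR-126a-3p was 13.36 ± 0.62 (SD, n = 3) in WT and 14.13 ± 0.24 in WT-BLM lungs. The log2 fold change of WT-BLM over WT was 0.76 (standard error 0.34, 95% confidence interval -0.034 to 1.56), that is 1.70-fold, with a limma adjusted p of 1 and an exact permutation p of 0.30. It was 7th of the 275 miRNAs by unadjusted p (0.0582 in limma). The unadjusted limma p was 0.0196 with cyclic loess, with an adjusted p of 0.975. The difference was larger than the SD of either group but did not pass the test, and its interval included 0.

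**Figure D1:**
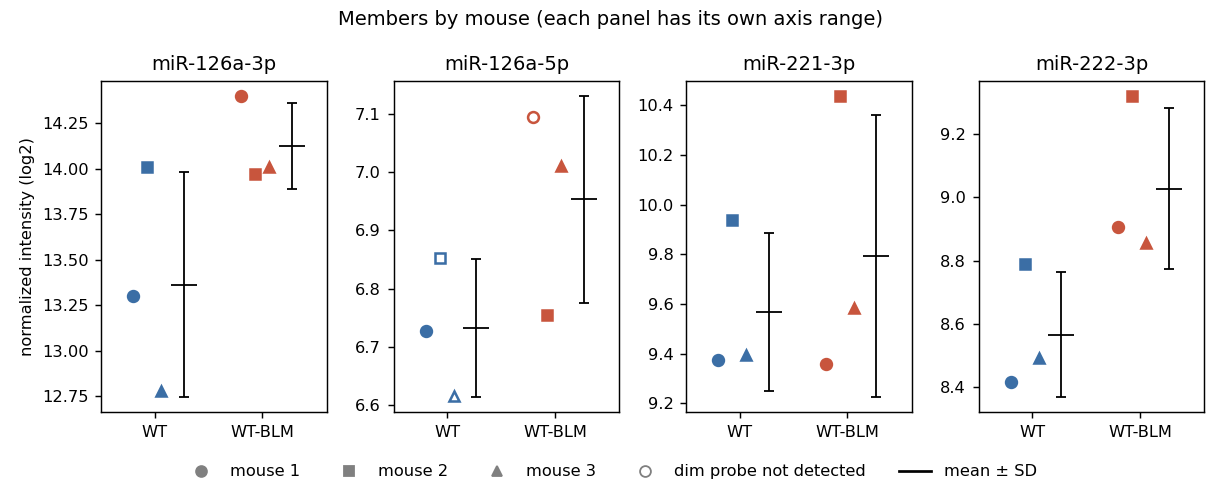
Normalized log2 intensity of each miRNA (vertical axis, with its own range in each panel) in 3 WT and 3 WT-BLM lungs. Each symbol is 1 mouse, open symbols mark arrays on which the probe was not detected, and the black bar is the mean ± SD; only for miR-222-3p are all WT-BLM mice above all WT mice.

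The WT values of miR-126a-3p differed in the quality of their spots. On the array of WT mouse 1, one spot stood at 19618 and the other at 4617 above the empty spots. The brightness within the dim spot varied by 28.8% of its intensity, whereas this spread was 2.65% to 6.97% in the remaining 11 spots of miR-126a-3p. The log2 fold change was 0.73 with discordant spots left out and 0.72 without WT mouse 1, and it was 0.48 when, in a setting chosen after seeing the data, such probes were read from the spot with the smaller spread. On the array of WT mouse 3 both spots were dim and close together, at 4056 and 4553, where the spots of the 4 arrays with concordant spots other than this one lay between 18384 and 25439. Without WT mouse 3 the log2 fold change was also 0.48, and without WT-BLM mouse 1, the highest mouse, it was 0.64. With arrays weighted by their quality it was 0.45, without normalization 1.17 and with scaling to the 75th percentile of all probes 1.24. The part of spot quality and of the dim array in the difference was not tested beyond these values.

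In the authors' own normalized intensities, miR-126a-3p was 19618, 14672 and 6111 in WT mice 1, 2 and 3 and 23403, 16455 and 16257 after BLM. Here WT mouse 1 was above WT-BLM mice 2 and 3, while WT mice 2 and 3 were below every WT-BLM mouse. The means were 13467 ± 6834 (SD, n = 3) and 18705 ± 4070, a ratio of 1.39 with an exact permutation p of 0.40. As a share of the summed intensity of all miRNA probes above the empty spots, a scaling of each array by its total that was chosen after seeing the data, miR-126a-3p took 2.23%, 2.88% and 1.23% in WT and 4.16%, 3.18% and 3.36% in WT-BLM lungs. On this scale the groups did not overlap (exact permutation test, two-sided p = 0.10, the smallest that 3 against 3 mice can give), with or without WT mouse 3. Whether the groups overlapped for miR-126a-3p thus depended on the scale.

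**Figure D2:**
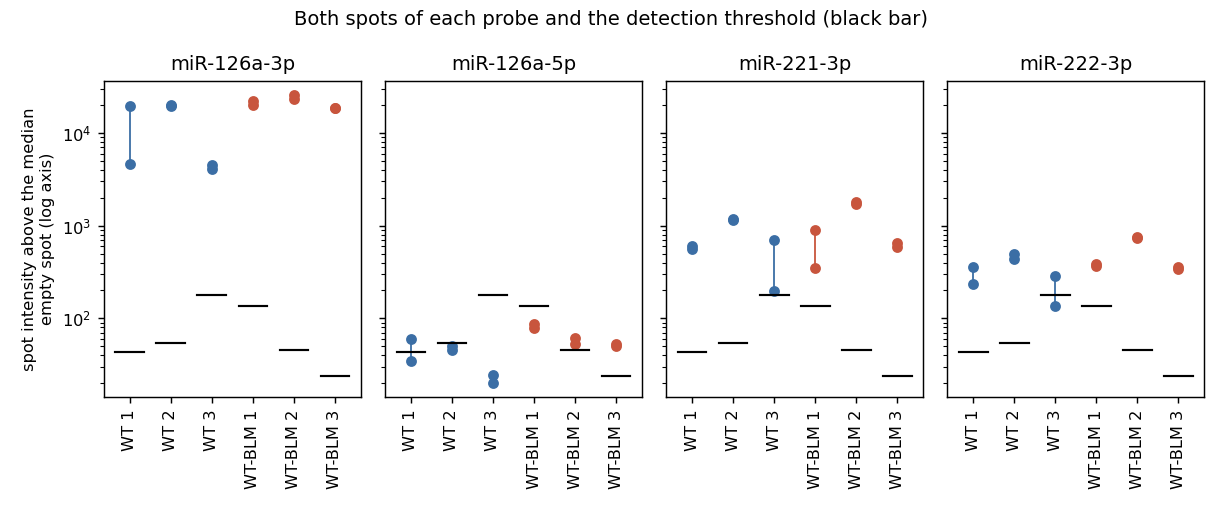
Intensity above the median empty spot (log axis) of both spots of each probe on the 3 WT (blue) and 3 WT-BLM (red) arrays, joined by a line, with the detection threshold of each array as a black bar. The spots of miR-126a-3p on the array of WT mouse 1 are far apart at 19618 and 4617, and those of miR-126a-5p lie near or below the threshold.

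miR-126a-5p, the other arm of the same hairpin, was close to the limit of detection. It was detected in 1 of 3 WT and 2 of 3 WT-BLM lungs and entered the tests only through these 3 arrays. Its intensity above the empty spots was 47.6, 47.6 and 22.2 in WT mice 1, 2 and 3, and 81.9, 57.2 and 51.7 after BLM. The highest of these, in WT-BLM mouse 1, was itself below the threshold of its array, 136, where the SD of the empty spots was 45.2. The log2 intensity was 6.73 ± 0.12 (SD, n = 3) in WT and 6.95 ± 0.18 in WT-BLM lungs. The groups overlapped, the log2 fold change was 0.22 (standard error 0.21, limma adjusted p = 1), and the interval was -0.28 to 0.72. An offset of 50 is about as large as the signal of this probe and shrinks its fold change, which was 0.52 when the empty spots were subtracted with no offset. Without WT-BLM mouse 1 it was 0.15. The log2 fold change was -0.12 when arrays were scaled to the 75th percentile of the probes detected on all arrays, a scaling that moved the median of all 275 miRNAs from 0.044 to -0.22.

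The arms of miR-126a differed widely in brightness on the 3 arrays where both were detected. The 3p spots were 255 times as bright as the 5p spots above the empty spots in WT mouse 1, and 425 and 357 times as bright in WT-BLM mice 2 and 3. The ratios were 413, 445 and 358 when the brighter miR-126a-3p spot was set against the mean of both miR-126a-5p spots. This leaves out the dim miR-126a-3p spot of WT mouse 1, where the miR-126a-5p spots stood at 60.1 and 35.0. Where the 5p arm was not detected the ratio is only a lower bound, of at least 364-fold in WT mouse 2, 24.2-fold in WT mouse 3 and 156-fold in WT-BLM mouse 1. The pair of probes may bind their targets unequally, so that the ratio of brightness is not the ratio of the strands, and the values are a description.

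On the arrays where both arms were detected, the log2 intensity of miR-126a-3p minus that of miR-126a-5p was 6.57 in WT mouse 1, and 7.22 and 7.00 in WT-BLM mice 2 and 3. In the authors' intensities the ratio of the arms on these arrays was 577 in WT mouse 1, and 549 and 369 in WT-BLM mice 2 and 3. WT mouse 1 was lowest of the 3 on the first scale. It was in the middle when only the brighter miR-126a-3p spot was taken, with both miR-126a-5p spots averaged. In the authors' values it was highest, and its miR-126a-3p intensity of 19618 there equalled that of the bright spot. With 1 WT and 2 WT-BLM lungs, no comparison of the arms between the groups is given.

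**Figure D3:**
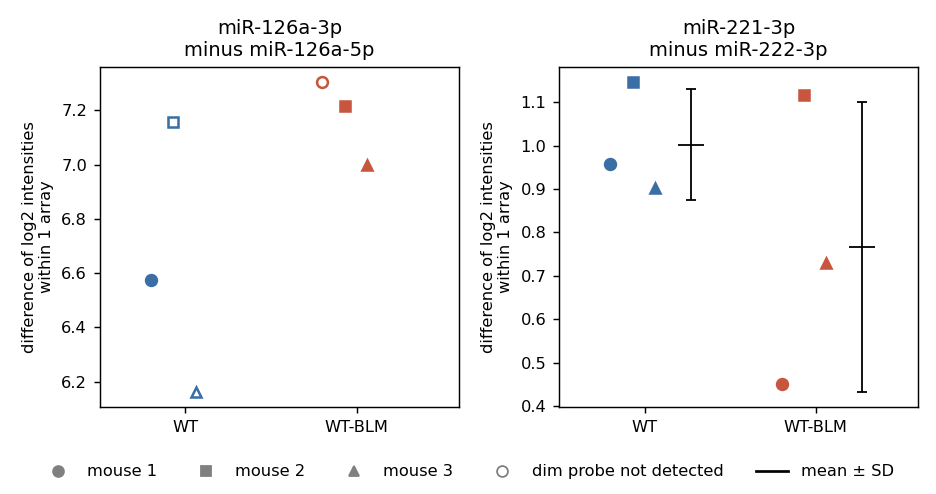
Difference of log2 intensities within 1 array (vertical axis) for the arms of miR-126a and for miR-221-3p and miR-222-3p in 3 WT and 3 WT-BLM lungs, with the mean ± SD as a black bar for the second pair only. Open symbols mark arrays on which miR-126a-5p was not detected, whose values are not measured differences; for miR-221-3p and miR-222-3p the groups overlap.

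miR-222-3p was the only one of the 4 for which every WT-BLM mouse was above every WT mouse in the normalized log2 intensities. Its log2 intensity was 8.42, 8.79 and 8.49 in WT mice 1, 2 and 3, and 8.91, 9.32 and 8.85 after BLM. The gap between the highest WT mouse and the lowest WT-BLM mouse was narrow. It was detected on all 6 arrays, at places 130, 110 and 120 of 1963 in WT and 104, 90 and 108 in WT-BLM lungs. On the array of WT mouse 3 its spots stood at 137 and 284 above the empty spots, where the threshold was 178. In WT mouse 1 they stood at 236 and 356. The means were 8.57 ± 0.20 (SD, n = 3) and 9.03 ± 0.26. The log2 fold change was 0.46 (standard error 0.24, 95% confidence interval -0.093 to 1.02), or 1.38-fold, with a limma adjusted p of 1 and an exact permutation p of 0.10. It was 10th of 275 by unadjusted p (0.0904 in limma). The unadjusted limma p was 0.0305 with no filter and 0.0462 with detection by a robust SD, and the adjusted p was 0.970 and 1.

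In the authors' intensities miR-222-3p stood at 235, 328 and 288 in WT and at 369, 529 and 330 in WT-BLM lungs. These groups too did not overlap, by 2 intensity units. As a share of the summed signal it took 0.0544%, 0.0680% and 0.0603% in WT and 0.0741%, 0.0971% and 0.0643% in WT-BLM lungs, where WT mouse 2 was above WT-BLM mouse 3. With scaling to the 75th percentile of the probes detected on all arrays the log2 fold change was 0.18, with the brighter spot it was 0.27, and without WT-BLM mouse 2 it was 0.31. Groups without overlap were found for 4.73% of all tested miRNAs, and 1 of 4 is too few to set against that share.

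miR-221-3p, transcribed with miR-222-3p, was brighter and more variable. Its log2 intensity was 9.37, 9.94 and 9.39 in WT mice 1, 2 and 3, and 9.36, 10.44 and 9.59 after BLM. WT-BLM mouse 1 was the lowest of all 6 mice and WT-BLM mouse 2 the highest. The means were 9.57 ± 0.32 (SD, n = 3) and 9.79 ± 0.57, and the log2 fold change was 0.23 (standard error 0.34, limma adjusted p = 1, exact permutation p = 0.70). The 95% confidence interval was -0.56 to 1.02. The log2 fold change was -0.096 without WT-BLM mouse 2, so that its direction rested on that mouse. It was 0.46 without WT-BLM mouse 1, 0.40 without WT mouse 2, and 0.057 with scaling to the 75th percentile of the probes detected on all arrays. The spots were discordant on 2 arrays, at 692 and 199 in WT mouse 3 and at 897 and 346 in WT-BLM mouse 1. Leaving out discordant spots gave a log2 fold change of 0.36, and reading such probes from the spot with the smaller spread gave 0.14. In the authors' intensities it was 516, 856 and 597 in WT and 622, 1270 and 579 in WT-BLM lungs.

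On every array miR-221-3p was brighter than miR-222-3p, which as a comparison of 2 probes says nothing of their abundance. The log2 intensity of miR-221-3p minus that of miR-222-3p was 0.96, 1.15 and 0.90 in WT mice 1, 2 and 3, and 0.45, 1.12 and 0.73 after BLM. WT-BLM mouse 1, with discordant miR-221-3p spots, was lowest. The means were 1.00 ± 0.13 (SD, n = 3) and 0.77 ± 0.33, a change of -0.24 (standard error 0.21) with an exact permutation p of 0.30. Without WT-BLM mouse 1 the change was -0.073, and without WT-BLM mouse 2 it was -0.40. It was -0.13 with discordant spots left out, -0.11 with the brighter spot and -0.32 with the spot of smaller spread. The SD of this difference over all 6 mice was 0.26. Of the passenger strands, miR-221-5p was detected in 1 of 3 WT and 2 of 3 WT-BLM lungs, with a log2 fold change of -0.063 (standard error 0.29, limma adjusted p = 1), and miR-222-5p was detected in none.

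Across the 6 arrays the log2 intensity of miR-126a-3p had a Pearson correlation of 0.86 with its own 5p arm, 0.70 with miR-222-3p and 0.33 with miR-221-3p, and that between miR-221-3p and miR-222-3p was 0.80. These values are descriptions over 6 points that share the quality of each array, and miR-126a-5p was below its threshold on 3 of them. Without the dim array of WT mouse 3 they were 0.78, 0.61, 0.12 and 0.77 in the same order. The correlation of miR-126a-5p was -0.16 with miR-221-3p and 0.35 with miR-222-3p, and -0.48 and 0.10 without that array. Of the other 274 tested miRNAs, those with the most similar levels to miR-126a-3p were miR-199a-5p (r = 0.96), miR-375-3p (0.92) and miR-34b-5p (0.91). For miR-126a-5p they were miR-98-5p (0.96), miR-126a-3p and miR-199a-5p (0.84). For miR-221-3p they were miR-30a-3p (0.95), miR-185-5p (0.93) and miR-324-5p (0.92), and for miR-222-3p they were miR-19b-3p (0.91), miR-31-5p (0.89) and miR-324-5p (0.87). The 3p arm was thus among the 3 nearest to miR-126a-5p, but the 5p arm was not among the 3 nearest to miR-126a-3p by Pearson correlation over 6 arrays, and neither miR-221-3p nor miR-222-3p was among the 3 nearest to the other. By rank the order differed, with a Spearman correlation of 0.99 between the arms of miR-126a, and 0.81, 0.64 and 0.90 between miR-126a-3p and the 3 named as its nearest. Without WT mouse 3 the correlations of miR-126a-3p with its 3 nearest were 0.88, 0.75 and 0.79, beside 0.78 with its 5p arm, while those of miR-221-3p were 0.95, 0.97 and 0.96.

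Other miRNAs known for a role in endothelial cells were taken as a list of 22, of which 20 were tested. None had a limma adjusted p under 0.05 in either direction, and none had an unadjusted p under 0.05. The log2 fold change was above 0 for 11 and below 0 for 9, with a median of 0.081, against 155 and 120 of all 275 tested miRNAs and a median of 0.044. The ends of the range were miR-146a-5p, a repressor of inflammatory signalling, at 1.00 (standard error 0.62), and miR-10a-5p, known for restraining endothelial inflammation, at -0.44 (standard error 0.35). miR-31-5p stood at 0.79 (standard error 0.38) and miR-92a-3p, of the miR-17-92 cluster and known to restrain vessel growth, at -0.25 (standard error 0.21). The groups did not overlap for 3 of the 20, beside 13 of all 275 (4.73%), namely miR-20a-5p at 0.29, miR-19a-3p at -0.18 and miR-503-5p at -0.36. The adjusted p was 1 for each of them.

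**Figure D4:**
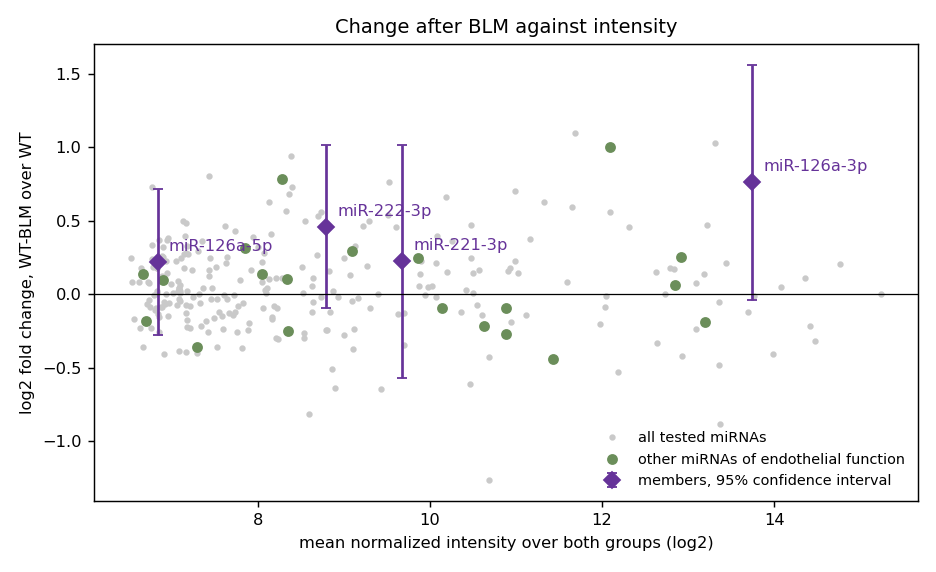
Log2 fold change of WT-BLM over WT (vertical axis) against the mean normalized log2 intensity (horizontal axis) of the 275 tested miRNAs (grey), the 20 tested miRNAs of the list of endothelial function (green) and the 4 miRNAs described here (purple, with 95% confidence intervals). All 4 intervals include 0.

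Markers of other lung cells were read beside these values. For epithelium 6 of 6 markers were tested, with a median log2 fold change of 0.20, and 4 of 6 were above 0. The corresponding medians were -0.47 for 2 markers of smooth muscle, 0.026 for 3 of red blood cells, 0.082 for 4 of leukocytes and -0.088 for 3 of fibroblasts. Among the latter miR-199a-5p, the miRNA most like miR-126a-3p in level, stood at 0.40 (standard error 0.23, limma adjusted p = 1) with groups that did not overlap, while miR-199a-3p and miR-214-3p stood at -0.088 and -0.14. None of these miRNAs had an adjusted p under 0.05. The summed intensity of the markers above the empty spots overlapped between the groups for each of these lists, for example from 5820 to 8325 in WT and from 7225 to 9629 in WT-BLM lungs for epithelium. Of 5 striated muscle markers, 2 were tested, miR-1a-3p at -1.26 (standard error 0.75) and miR-133a-3p at -0.63 (standard error 0.73), with a median of -0.95. The summed intensity of all 5 ran from 656 to 14568 in WT and from 1100 to 1672 in WT-BLM lungs, and was highest in WT mouse 2, where the skeletal muscle miRNA miR-206-3p was detected. Of the cardiac and slow muscle miRNAs, miR-208b-3p was detected in 0 of 3 WT and 2 of 3 WT-BLM lungs and miR-499-5p on no array. Without WT mouse 2 the log2 fold change of miR-126a-3p was 1.11, with an unadjusted p of 0.00807 and an adjusted p of 0.949 in limma. The part of other cell types in the levels of miR-126a, miR-221 and miR-222 was not tested.

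**Figure D5:**
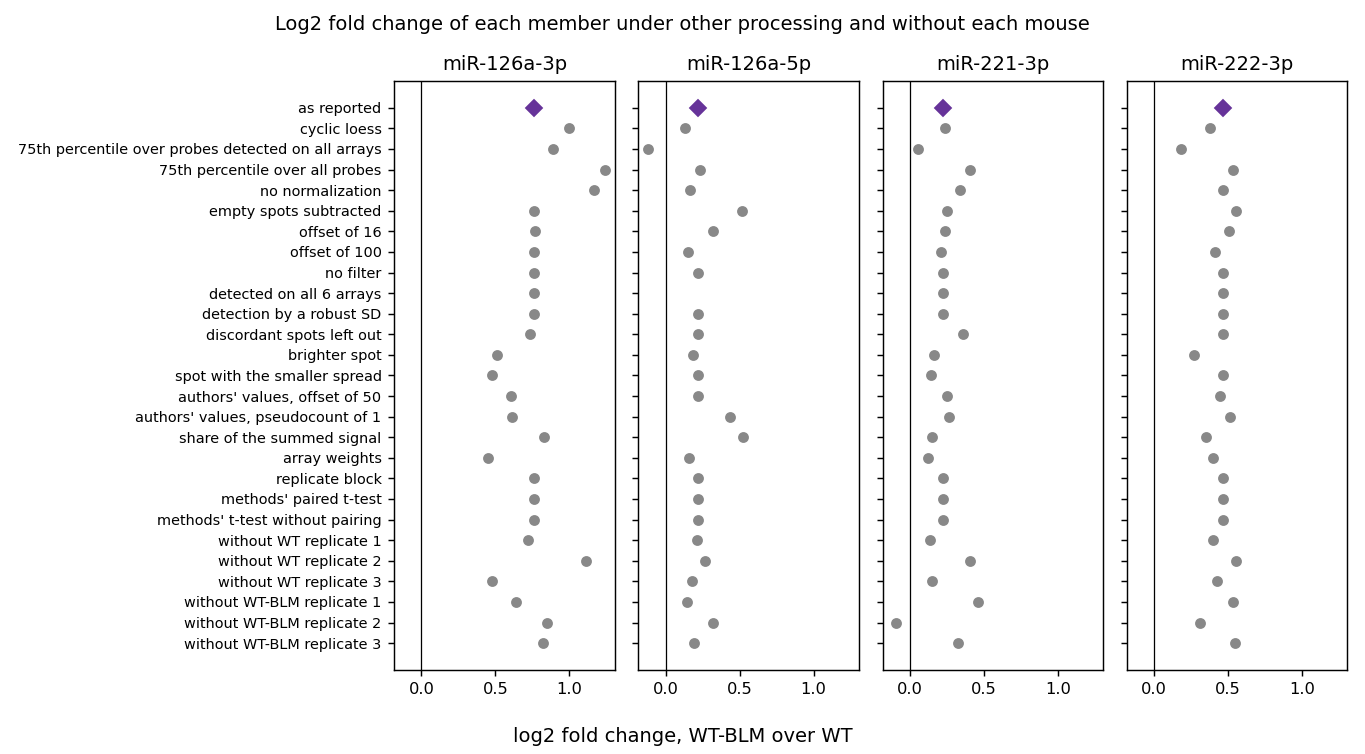
Log2 fold change of WT-BLM over WT (horizontal axis) of each miRNA as reported (purple diamond) and under each alternative processing or with 1 mouse left out (grey circles). miR-126a-3p and miR-222-3p stay above 0 throughout, while miR-126a-5p reaches -0.12 and miR-221-3p -0.096; miR-126a-5p has no point where only probes detected on all 6 arrays were tested.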

How the data were processed

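Total RNA of mouse lung, prepared with a miRNA kit, was hybridised to LC Sciences miRNA arrays with 1 dye (Cy3), and each array held 5022 spots, 3926 of them for 1963 miRNAs in duplicate and 800 empty. The authors deposited spot intensity and spread per array, and a table of normalized intensity per miRNA, whose normalization method is not given in the sources used here. Over 116 probes detected on all arrays, the authors' log2 values correlated with those computed here at 0.974 to 0.996. Spots were corrected with normexp (offset 50), controls were dropped, log2 values were quantile normalized and duplicates averaged. Probes detected on at least 3 of 6 arrays were compared with limma 3.58.1 in R 4.3.3 (lmFit, eBayes, Benjamini-Hochberg over 275 miRNAs), and single values with two-sided exact permutation tests. The script was tested on simulated data. The labels number the mice but name no slide or scan, and p-values measure the spread between these mice. The number of arrays limits the precision.

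Named miRNAs were the 4 described, their other arms and relatives, probes sharing a seed, the 3 miRNAs most like each in level by Pearson correlation, and members of the lists. The members and lists were chosen with earlier results of these data known. Sequences are from the deposited files and positions from RefSeq. Other filters, offsets, normalizations, spot rules, tests and sets of mice were tried in 24 settings, with 2 more chosen after seeing the data.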

Additional observations from a re-analysis of the deposited data

How the results depend on the processing

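No miRNA had an adjusted p under 0.05 under any of the 26 alternatives, and the log2 fold changes of miR-126a-3p (0.45 to 1.24) and miR-222-3p (0.18 to 0.55) stayed above 0 in all of them. That of miR-126a-5p was -0.12 with scaling to the 75th percentile of probes detected on all arrays. Leaving out 1 mouse gave 0.48 to 1.11 for miR-126a-3p, 0.15 to 0.32 for miR-126a-5p, -0.096 to 0.46 for miR-221-3p and 0.31 to 0.55 for miR-222-3p. It gave -0.40 to -0.073 for the change between miR-221-3p and miR-222-3p. The change between the arms of miR-126a is not given, since miR-126a-5p was below its threshold on 3 of 6 arrays. The mean place of miR-126a-5p in WT lungs was 304, but 266 with discordant spots left out and 356 with the brighter spot, and that of miR-221-3p was 82.3, but 74.5 with discordant spots left out. The cause was not tested.

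The number of miRNAs with an unadjusted p under 0.05 was 5, and it was 46 of 1963 with no filter, 1 of 116 when detection on all 6 arrays was required, 12 of 570 with detection by a robust SD, 14 with array weights, 9 in the methods' paired test (miR-222-3p among them, unadjusted p 0.0116 and adjusted p 0.999), 8 with cyclic loess, 8 and 2 with the 75th percentile of the probes detected on all arrays and of all probes, 2 with the spot of smaller spread, 3 with shares of the summed signal, and 1 to 20 with 1 mouse left out, the highest without WT mouse 3. With the replicate number as a block the log2 fold changes were 0.76, 0.22, 0.23 and 0.46 for miR-126a-3p, miR-126a-5p, miR-221-3p and miR-222-3p and 8 miRNAs had an unadjusted p under 0.05. Deviations of same-numbered mice correlated at 0.16, 0.028 and 0.073, so that the numbers were not taken as pairs. A block for slide or scan was not run, since the files name neither. Signal over background limits miR-126a-5p, which was detected on 3 arrays.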
